A study of Homo sapiens with 12 samples.

Results

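Genes that human embryos switch on around the 8-cell stage were followed in H9 cells, an established line of human embryonic stem cells. The 8 genes described here are ZSCAN4, TPRX1, KLF17, ZNF280A, CCNA1, CCNJ, SLC34A2 and FAM151A, taken by symbol from a table of 53712 named genes. All 8 were in the table and entered the test, which covered 17228 genes. The cells were kept in RSeT, a medium intended to hold the naive state of pluripotency, and were transfected with oligonucleotides at 25 nM. The target is LINE1 (L1), a kind of transposable element that fills much of the human genome. ASO-L1 is antisense to its RNA, SO-L1 is its sense counterpart, and ASO-Ctr is an antisense control without an intended target. Every group, the controls included, received 10 nM DZNep and 5 nM TSA after transfection, which act against histone methylation and histone deacetylation. Unsorted cells were harvested at 48 h, and additives meant to aid survival (trans-ISRIB, emricasan and Y-27632) had been removed at 24 h. Each group has 4 libraries with the numbers 1 to 4, so that the 3 groups hold 12 poly(A) libraries in all. The series asks how L1 bears on genes of the 8-cell stage.

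In the human embryo the first large wave of transcription comes at about the 8-cell stage. Homeobox factors such as DUX4 and the PRD-like genes, TPRX1 among them, act early in that wave and switch on genes such as ZSCAN4 and members of the KDM4E, RFPL, TRIM and PRAMEF families. Cultures of pluripotent cells contain such transcripts at low levels or in few cells. In mouse embryonic stem cells, L1 RNA has been linked to repression of Dux and of the matching programme of the mouse embryo. In bulk RNA such as this, a change in the number of expressing cells and a change in RNA per cell cannot be told apart.

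The libraries held between 20367989 and 32180891 counts, and mitochondrially encoded RNA took 4.74% to 8.81% of them. Levels are given in CPM, counts scaled to a common library size after TMM correction. A total of 3 counts in a library corresponds to 0.0942 to 0.148 CPM, a floor that covers counting error only. Markers of pluripotent cells were present in every library, with POU5F1 at 916 to 1153 CPM, SOX2 at 341 to 427 CPM and NANOG at 109 to 133 CPM. Markers of the naive state, such as DPPA3 (27.7 to 61.0 CPM) and SUSD2 (13.8 to 21.2 CPM), were measured beside markers of the primed state, such as DNMT3B (2272 to 2962 CPM). KLF17, which belongs to the naive state as well as to the 8-cell stage, stood at 0.247 to 1.23 CPM. The filter on low counts asks for 0.407 CPM or more in 4 libraries, and ZSCAN4 met it in the ASO-L1 libraries only, so that it could enter the test only with a higher level there. No label says that libraries of a group came from separate cultures, and p-values then measure the spread between these libraries, which may be technical.

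The bases just before the start of transcription are shown for genes that were higher in ASO-L1 and for CCNJ, which was not, since these genes differ widely in the kind of promoter they carry. They are the 250 bases before the start in RefSeq on GRCh38.p14, written 5′ to 3′ on the strand of the gene, and 7 of the 8 genes were matched there by symbol. The deposited counts were made on hg19, so these positions serve to show the sequence only. Capitals mark 3 motifs on either strand. TAATCC is a site of bicoid-type homeobox proteins. The letters TATAAA are those of a TATA box. CACCC is the core of sites for Krüppel-like factors.
ZSCAN4 (chr19:57668685-57668934, plus strand): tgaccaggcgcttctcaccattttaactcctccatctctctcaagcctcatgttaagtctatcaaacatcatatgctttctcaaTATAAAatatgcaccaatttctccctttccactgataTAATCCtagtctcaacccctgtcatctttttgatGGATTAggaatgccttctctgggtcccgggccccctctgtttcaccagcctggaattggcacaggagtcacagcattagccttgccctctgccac
ZNF280A (chr22:22520271-22520520, minus strand): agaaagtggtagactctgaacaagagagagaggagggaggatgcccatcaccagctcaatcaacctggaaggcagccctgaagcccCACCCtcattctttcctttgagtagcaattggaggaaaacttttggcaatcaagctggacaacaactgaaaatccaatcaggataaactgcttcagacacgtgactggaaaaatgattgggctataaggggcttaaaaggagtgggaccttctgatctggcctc
FAM151A (chr1:54623526-54623775, minus strand): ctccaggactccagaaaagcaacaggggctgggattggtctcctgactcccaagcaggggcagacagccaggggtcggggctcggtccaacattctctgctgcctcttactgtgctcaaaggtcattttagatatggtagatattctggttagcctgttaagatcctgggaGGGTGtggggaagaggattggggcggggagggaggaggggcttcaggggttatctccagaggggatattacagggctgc
SLC34A2 (chr4:25655601-25655850, plus strand): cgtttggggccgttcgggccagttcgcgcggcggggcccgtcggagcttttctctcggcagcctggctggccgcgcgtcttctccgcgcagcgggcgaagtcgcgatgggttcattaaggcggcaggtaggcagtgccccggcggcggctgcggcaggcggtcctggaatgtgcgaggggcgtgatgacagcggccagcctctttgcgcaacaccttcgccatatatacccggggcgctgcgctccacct
CCNJ (chr10:96043333-96043582, plus strand): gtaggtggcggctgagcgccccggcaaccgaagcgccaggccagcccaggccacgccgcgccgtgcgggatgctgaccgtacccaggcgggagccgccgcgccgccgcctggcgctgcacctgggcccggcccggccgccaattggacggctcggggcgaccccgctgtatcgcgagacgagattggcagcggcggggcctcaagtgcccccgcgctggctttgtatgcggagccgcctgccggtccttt
The window before ZSCAN4 holds TAATCC 2 times, 129 and 95 bases before the start, and TATAAA once, 166 bases before it. Of 35116 RefSeq windows of the same length, 5.62% hold TAATCC and 10.7% hold TATAAA on either strand. The window of KLF17, not printed, holds CACCC at 6 places, and 54.7% of all windows hold it at least at 1 place. ZNF280A has CACCC 164 bases and CACGTG, an E-box left in lower case, 67 bases before its start, and 6.34% of windows hold the E-box. CpG content separates the genes more than these motifs do. ZNF280A has 1 CpG, ZSCAN4 has 2 and FAM151A has 3, whereas CCNA1 has 31, SLC34A2 has 33 and CCNJ has 35. KLF17, with 11, is at the median of all windows, which is 11. Genes that were higher in ASO-L1 thus come from both ends of the CpG range, and these matches are a description of the letters, not of bound factors.

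ASO-L1 against ASO-Ctr is the contrast of L1-directed with control antisense oligos. ZSCAN4, TPRX1, ZNF280A, SLC34A2 and FAM151A rose in ASO-L1, by 3.86-fold to 6.87-fold. CCNA1 was higher in every pair of libraries with the same number. In edgeR on all 12 libraries it passed only when the number was a block, and it also passed in DESeq2 (adjusted p = 0.0380). KLF17 had a smaller difference, borne by numbers 3 and 4, and CCNJ did not pass. Of the 8 genes, 5 were called higher at an adjusted p under 0.05 (edgeR quasi-likelihood F test, two-sided, Benjamini-Hochberg over all genes tested), and 0 were called lower. Among those called, ZSCAN4 had entered the test through its ASO-L1 libraries only. Over all genes tested, 11.6% were called higher and 10.7% lower, and the median log2 change was -0.001. No gene of the 8 was lower at an unadjusted p under 0.05 either, and DESeq2 called 6 higher and 0 lower, limma-voom 3 and 0. No share of all genes is given for unadjusted p-values, DESeq2 or limma-voom, in this contrast or in ASO-L1 against SO-L1. With the library number as a block, 7 passed as higher and 0 as lower, beside 22.5% of all genes higher and 22.5% lower.

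**Figure D1:**
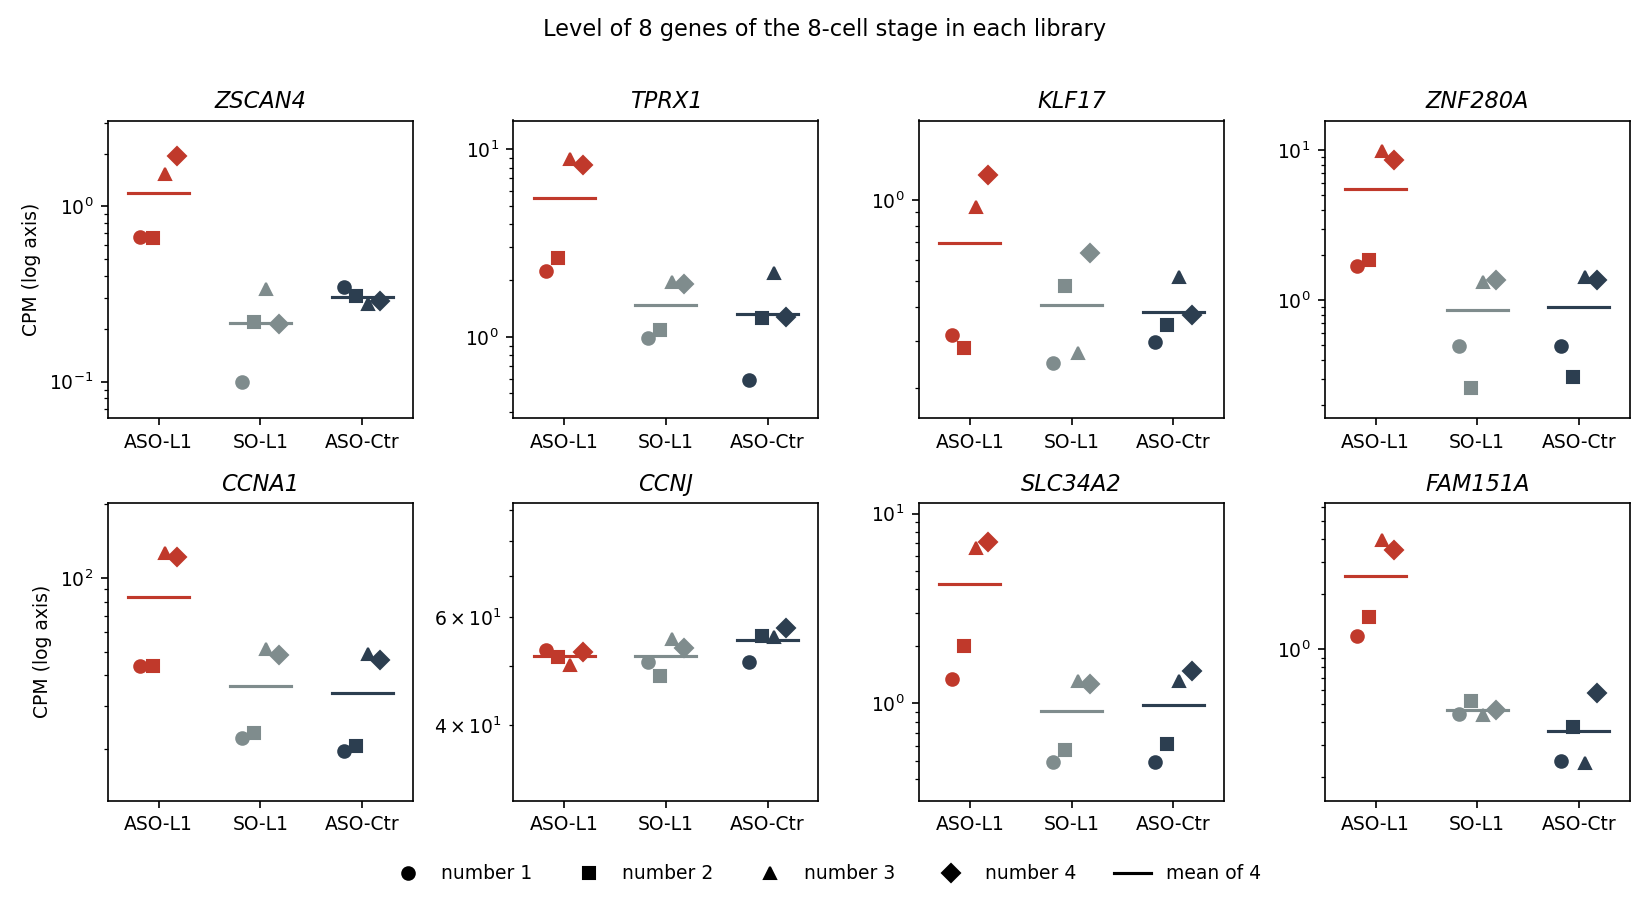
Level of each gene in each of the 12 libraries, in CPM on a log axis that differs between panels, with the mean of the 4 libraries of a group as a line and the library number as the marker. In ASO-L1 the libraries with numbers 3 and 4 lie above those with numbers 1 and 2 for 7 genes, and CCNJ stays between 48.2 and 57.7 CPM in all libraries.

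Among the transcription factors, ZSCAN4 encodes a SCAN-domain zinc finger protein that marks the 8-cell stage in human and the corresponding stage in mouse embryos. It had 0.670, 0.659, 1.53 and 1.93 CPM in ASO-L1 libraries 1 to 4, against 0.345, 0.307, 0.279 and 0.289 CPM in ASO-Ctr libraries 1 to 4. All ASO-L1 libraries were above all ASO-Ctr libraries, as was so for 13.3% of all genes tested. For ZSCAN4 this followed from the filter on low counts, which it met in ASO-L1 libraries only, and is not a further result. These levels rest on few reads, 129 counts over the ASO-L1 group and 30 over ASO-Ctr. The log2 change was 1.95 ± 0.40 (SE; edgeR adjusted p = 0.00370).

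TPRX1, a PRD-like homeobox gene of genome activation, had 2.25, 2.64, 8.91 and 8.30 CPM in ASO-L1 and 0.591, 1.26, 2.19 and 1.28 CPM in ASO-Ctr, in the order of the numbers. The lowest ASO-L1 library was just above the highest ASO-Ctr library, so the groups did not overlap. Its log2 change was 2.02 ± 0.49 (edgeR adjusted p = 0.00928).

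KLF17, a Krüppel-like factor of the 8-cell stage and of naive epiblast, had 0.315, 0.283, 0.939 and 1.23 CPM in ASO-L1 libraries, against 0.295, 0.342, 0.517 and 0.372 CPM in ASO-Ctr libraries. The groups overlapped, since ASO-L1 libraries 1 and 2 lay within the ASO-Ctr range or just under it. The log2 change of 0.82 ± 0.48 did not pass (edgeR adjusted p = 0.258). With the library number as a block it was 0.80 ± 0.33 and passed (edgeR adjusted p = 0.0466).

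ZNF280A, a zinc finger gene inside the immunoglobulin lambda locus, had 1.69, 1.85, 9.84 and 8.63 CPM in ASO-L1 libraries, against 0.492, 0.307, 1.43 and 1.36 CPM in ASO-Ctr libraries. ASO-L1 libraries were all higher, but ASO-L1 1 exceeded ASO-Ctr 3 by little. Its log2 change was 2.61 ± 0.68 (edgeR adjusted p = 0.0153). Across all 12 libraries its biological coefficient of variation was 64.0%, against a trend of 18.1% for genes of that abundance, and 6.48% against 6.76% with the library number as a block.

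The cyclin genes went apart. CCNA1, an A-type cyclin that in mouse acts in male meiosis, had 43.7, 43.5, 126 and 122 CPM in ASO-L1 libraries and 19.7, 20.7, 48.9 and 46.2 CPM in ASO-Ctr libraries. ASO-L1 1 and 2 lay below ASO-Ctr 3 and 4, so the groups overlapped, while each ASO-L1 library was above the ASO-Ctr library of its number. The log2 change of 1.31 ± 0.46 did not pass (edgeR adjusted p = 0.0656). With the library number as a block the change was 1.27 ± 0.06 (edgeR adjusted p = 1.39e-12). CCNJ, first described as a cyclin of the oocyte in Drosophila, had 53.1, 51.6, 50.1 and 52.7 CPM in ASO-L1 libraries and 50.7, 56.0, 55.7 and 57.7 CPM in ASO-Ctr libraries. Its groups overlapped, and the fold was 0.942 with a 95% interval from 0.866 to 1.03 (log2 change -0.09 ± 0.05, edgeR adjusted p = 0.3). Its coefficient of variation, 6.05%, was under the trend of 9.21%.

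Of the remaining genes, SLC34A2 encodes a sodium-dependent phosphate transporter known from lung and intestine. It had 1.34, 2.01, 6.57 and 7.11 CPM in ASO-L1 libraries and 0.492, 0.615, 1.31 and 1.49 CPM in ASO-Ctr libraries. A single ASO-L1 library, number 1, lay below the highest ASO-Ctr library. The log2 change was 2.11 ± 0.55 (edgeR adjusted p = 0.0152).

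FAM151A had 1.18, 1.51, 3.93 and 3.49 CPM in ASO-L1 libraries, against 0.246, 0.376, 0.239 and 0.578 CPM in ASO-Ctr libraries. The lowest ASO-L1 library was above the highest ASO-Ctr library by a clear margin. With 2.78 ± 0.42 it had the largest log2 change of the 8 genes in this contrast (edgeR adjusted p = 4.56e-04). It lies within ACOT11, an acyl-CoA thioesterase gene on the other strand in GENCODE v29, and the libraries are stranded, but the strand setting of the counting is not given in the sources used here. ACOT11 fell, with 3.63 ± 0.324 CPM in ASO-L1 and 5.29 ± 0.299 CPM in ASO-Ctr (log2 change -0.54 ± 0.12, edgeR adjusted p = 0.00573), while FAM151A rose. When each of the 12 libraries was left out in turn, the same 5 genes stayed called in ASO-L1 against ASO-Ctr, with adjusted p no higher than 0.0498. CCNA1 passed without ASO-L1 1 (edgeR adjusted p = 0.0464) and without ASO-L1 2 (edgeR adjusted p = 0.0434). TPRX1, ZNF280A and SLC34A2 did not pass when no filter on low counts was used (edgeR adjusted p = 0.0533, 0.0777 and 0.0776). ZNF280A and SLC34A2 did not pass in limma-voom (adjusted p = 0.0598 and 0.0563).

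ASO-L1 against SO-L1 sets the antisense oligos against the sense oligos to the same element and shares the ASO-L1 libraries with the contrast above, so that it is not a second, independent measurement. ZSCAN4, TPRX1, ZNF280A, SLC34A2 and FAM151A were again the 5 genes called higher, by 3.64-fold to 6.18-fold, and 0 were called lower. Over all genes, 10.7% were called higher and 9.64% lower. At an unadjusted p under 0.05, 6 were higher and 0 lower, while DESeq2 called 5 and 0 and limma-voom 2 and 0. With the library number as a block CCNA1 joined them, so that 6 passed, beside 21.6% of all genes higher and 21.7% lower. ZSCAN4, at 0.0988, 0.218, 0.339 and 0.212 CPM in SO-L1 libraries 1 to 4, had a log2 change of 2.37 ± 0.42 (edgeR adjusted p = 0.00171). The first of these values rests on 2 counts, which is under the floor. TPRX1 had 0.988, 1.09, 1.964 and 1.907 CPM in SO-L1, and its change was 1.86 ± 0.48 (edgeR adjusted p = 0.0154). ZNF280A had 0.494, 0.262, 1.32 and 1.36 CPM in SO-L1, and its change was 2.63 ± 0.68 (edgeR adjusted p = 0.0164). For these 3 genes every ASO-L1 library exceeded every SO-L1 library, as it did for SLC34A2 and FAM151A, and 12.7% of all genes behaved so. For ZSCAN4 this again followed from the filter on low counts.

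SLC34A2 stood at 0.494, 0.567, 1.32 and 1.27 CPM in SO-L1 (log2 change 2.17 ± 0.56, edgeR adjusted p = 0.0148). FAM151A had 0.445, 0.523, 0.440 and 0.466 CPM in SO-L1, with a coefficient of variation of 8.15%, and a change of 2.42 ± 0.41 (edgeR adjusted p = 0.00115). CCNA1, at 22.2, 23.3, 51.1 and 48.6 CPM in SO-L1, had 1.20 ± 0.46 (edgeR adjusted p = 0.0921), and 1.16 ± 0.06 with the library number as a block (edgeR adjusted p = 5.68e-12). KLF17 had 0.247, 0.480, 0.271 and 0.636 CPM in SO-L1 and a change of 0.74 ± 0.48 (edgeR adjusted p = 0.321). CCNJ, at 50.7, 48.2, 55.3 and 53.5 CPM in SO-L1, had a fold of 0.999 with a 95% interval from 0.918 to 1.09 (edgeR adjusted p = 0.991). Without SO-L1 2, TPRX1 and ZNF280A no longer passed in this contrast (edgeR adjusted p = 0.05 and 0.0527), nor did they without ASO-L1 3 (0.0516 and 0.0522). No filter on low counts left ZSCAN4 and FAM151A as the genes called, and so did limma-voom.

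**Figure D2:**
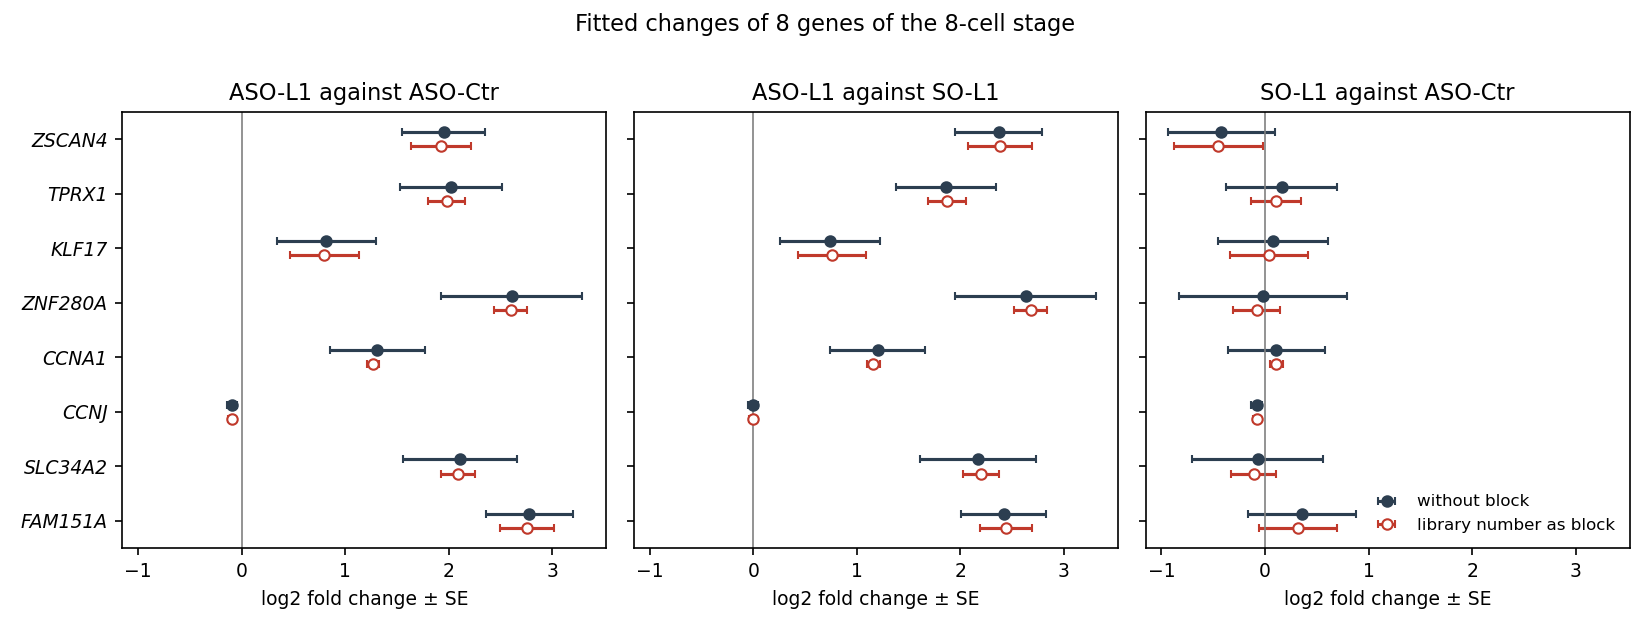
Fitted log2 fold change ± SE of each gene in the 3 comparisons, from the fit without a block (filled) and with the library number as a block (open). In both ASO-L1 comparisons CCNJ lies at or near 0 and the other genes lie to the right of it, and the block narrows the error of CCNA1 to 0.06.

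The authors' deposited table, which sets ASO-L1 against SO-L1, has the same direction for the genes called here. There, in the authors' deposited table, 21414 genes are listed and the adjusted p is 5.71e-05 for FAM151A, 5.93e-05 for SLC34A2 and 2.06e-04 for ZSCAN4. The authors' deposited table also has CCNA1 past the threshold, with a log2 change of 1.14 and an adjusted p of 6.48e-04. KLF17, with 0.70 and an adjusted p of 0.240, and CCNJ, with 0.00 and 0.977, are not past it in the authors' deposited table. In the authors' deposited log2 values, which carry a batch correction that the sources used here do not describe, CCNA1 lies at 6.09 to 6.32 in ASO-L1, at 4.98 to 5.16 in SO-L1 and at 4.92 to 5.00 in ASO-Ctr. On the deposited counts, without that correction, its ASO-L1 and ASO-Ctr libraries overlapped.

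SO-L1 against ASO-Ctr compares the control oligos with each other. Of the 8 genes, 0 were called in either direction by edgeR or limma-voom, and 0 had an unadjusted p under 0.05. DESeq2 called 0 of 6, since it gave no adjusted p for ZSCAN4 and KLF17. Over all genes edgeR called 0% higher and 0.029% lower in SO-L1, and 0.424% and 0.987% with the library number as a block. The folds of the 8 genes ran from 0.749 for ZSCAN4 to 1.29 for FAM151A. The 95% interval for ZSCAN4 ran from 0.329 to 1.70 and that for FAM151A from 0.571 to 2.89, so differences of that size were not detectable here. For CCNJ the interval was narrow, from 0.866 to 1.03. ZNF280A, with a fold of 0.988, had the widest interval, from 0.279 to 3.50.

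The libraries of a group were not alike, and the differences followed the library number. Numbers 1 and 2 went together and so did numbers 3 and 4, a grouping that comes from an earlier account of these data, since the labels do not say what a number stands for. Across all genes, 45.7% differed between library numbers at an adjusted p under 0.05 with groups held fixed, and 7 of the 8 genes did. CCNJ was the exception (edgeR adjusted p = 0.440). The smallest adjusted p-values were those of ZNF280A (edgeR, 5.77e-14), CCNA1 (edgeR, 7.53e-13) and SLC34A2 (edgeR, 4.21e-11). ZSCAN4 (edgeR adjusted p = 0.0143) and KLF17 (edgeR adjusted p = 0.0187) passed by less. ZSCAN4 lost this call without ASO-L1 1, 2 or 4 (edgeR adjusted p = 0.0644, 0.0520 and 0.0728), and KLF17 without ASO-L1 1, ASO-L1 4 or SO-L1 4 (edgeR adjusted p = 0.0756, 0.126 and 0.0532).

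In ZNF280A the mean of numbers 3 and 4 was 5.21 times that of numbers 1 and 2 in ASO-L1, 3.54 times in SO-L1 and 3.50 times in ASO-Ctr. CCNA1 showed ratios of 2.85 in ASO-L1, 2.19 in SO-L1 and 2.35 in ASO-Ctr. SLC34A2 had 4.09, 2.44 and 2.53 in ASO-L1, SO-L1 and ASO-Ctr. These 3 genes were thus higher in numbers 3 and 4 whichever oligo was given. ZSCAN4 had 2.61 in ASO-L1, 1.74 in SO-L1 and 0.871 in ASO-Ctr, and FAM151A had 2.76, 0.936 and 1.31. KLF17 had 3.64 in ASO-L1, 1.25 in SO-L1 and 1.40 in ASO-Ctr, and TPRX1 had 3.53, 1.86 and 1.87 in the same order. CCNJ kept 0.982 to 1.10 in the 3 groups.

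The difference between ASO-L1 and ASO-Ctr was therefore taken within each number as well. On the log2 CPM scale ZSCAN4 differed by 0.82, 0.93, 2.17 and 2.45 in numbers 1 to 4, and FAM151A by 1.96, 1.80, 3.66 and 2.44. CCNA1 held to a narrow range, with 1.14, 1.07, 1.37 and 1.40. TPRX1 (1.02 to 2.62), ZNF280A (1.63 to 2.72) and SLC34A2 (1.31 to 2.26) were also higher in ASO-L1 in all 4 pairs, as 26.1% of all genes tested were. KLF17 differed by 0.07, -0.22, 0.77 and 1.54, and CCNJ by 0.07, -0.12, -0.15 and -0.13. Fitted within numbers 1 and 2 alone, TPRX1, ZNF280A, SLC34A2, FAM151A and CCNA1 were higher, beside 17.6% of all genes higher and 17.6% lower. ZSCAN4 there had a log2 change of 1.03 ± 0.44 (edgeR adjusted p = 0.0662), and KLF17 had too few counts. Fitted within numbers 3 and 4 alone, 7 genes were higher, beside 17.9% of all genes higher and 17% lower, KLF17 among them (log2 change 1.26 ± 0.38, edgeR adjusted p = 0.00523), and CCNJ was lower (log2 change -0.14 ± 0.05, edgeR adjusted p = 0.0273).

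**Figure D3:**
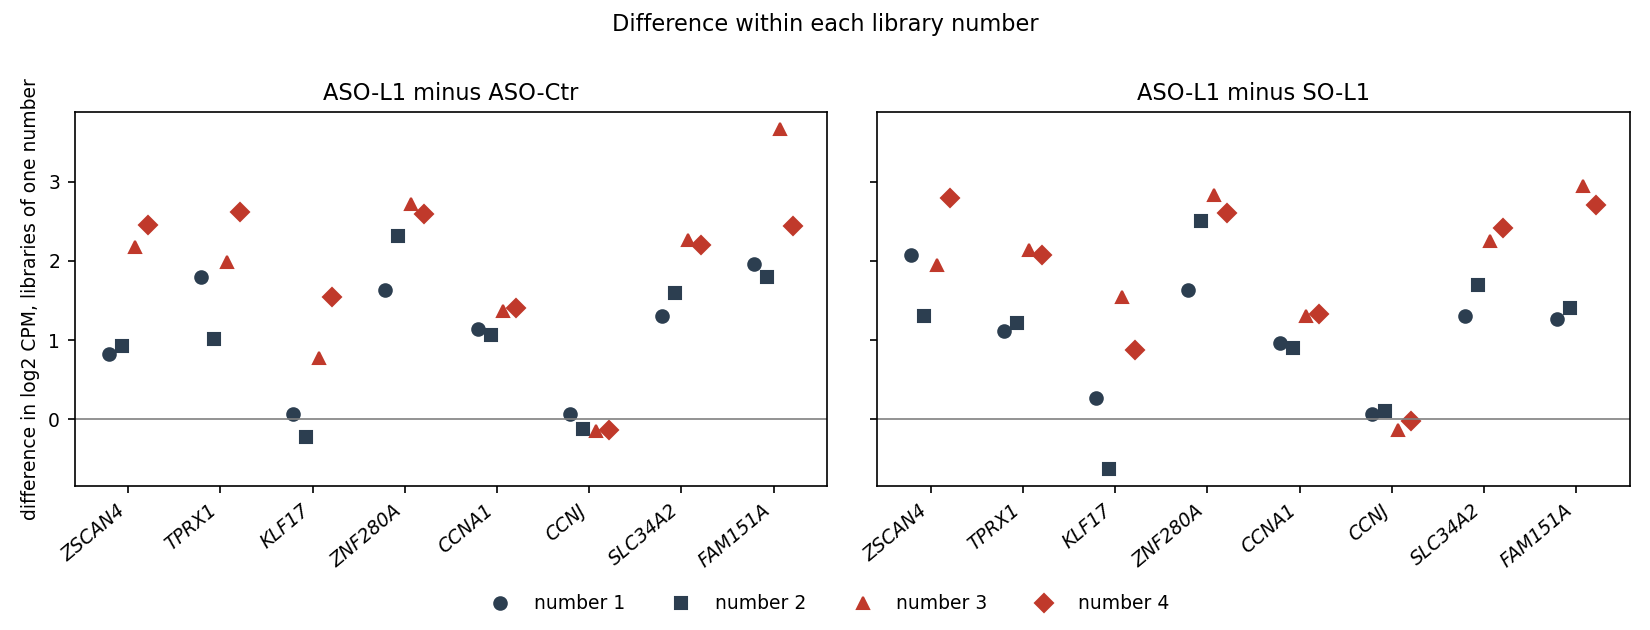
Difference in log2 CPM between ASO-L1 and ASO-Ctr, and between ASO-L1 and SO-L1, taken within each library number and shown with a marker for each number. ZSCAN4 against ASO-Ctr runs from 0.82 to 2.45, CCNA1 stays between 1.07 and 1.40, and KLF17 has points on both sides of 0.

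Whether the response itself differed between the sets was tested as an interaction, the log2 change in numbers 3 and 4 minus that in numbers 1 and 2. For ASO-L1 against ASO-Ctr 0 of the 8 genes passed by edgeR (5 had an unadjusted p under 0.05), where 0.778% of all genes did. The differences were positive for the 7 genes other than CCNJ, from 0.28 ± 0.08 for CCNA1 (edgeR adjusted p = 0.0817) to 1.55 ± 0.61 for ZSCAN4 (edgeR adjusted p = 0.338). Without ASO-Ctr 1, TPRX1 passed (log2 difference 1.34, edgeR adjusted p = 0.0200). For ASO-L1 against SO-L1, CCNA1 passed with 0.38 ± 0.08 (edgeR adjusted p = 0.00346), beside 1.76% of all genes. It did not pass without SO-L1 2 (edgeR adjusted p = 0.0579). The differences of ZSCAN4 and FAM151A rest on 30 and 36 counts in the whole ASO-Ctr group.

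Across the 12 libraries the genes other than CCNJ tracked each other. Pearson's r of log2 CPM was 0.976 between SLC34A2 and ZNF280A, 0.974 between SLC34A2 and CCNA1, 0.973 between CCNA1 and ZNF280A, and 0.963 between SLC34A2 and TPRX1. With the group means taken out, the first 3 of these were 0.945, 0.975 and 0.972, so the libraries also varied together within groups. ZSCAN4 and FAM151A had 0.884 over all libraries and 0.655 within groups. KLF17 was looser, with 0.625 to 0.774 to the genes other than CCNJ. CCNJ ranged from -0.286 to 0.100 over all libraries, and within groups from -0.025 with KLF17 to 0.466 with CCNA1. For several pairs many other tested genes had a higher r. By r, ZSCAN4 ranked 576 among the partners of TPRX1, FAM151A 1680 among those of CCNA1, and KLF17 2380 among those of ZSCAN4. ZNF280A ranked 4 among those of SLC34A2. The libraries share group, number and depth, and r is given as a description of them, not as a trait particular to these genes.

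**Figure D4:**
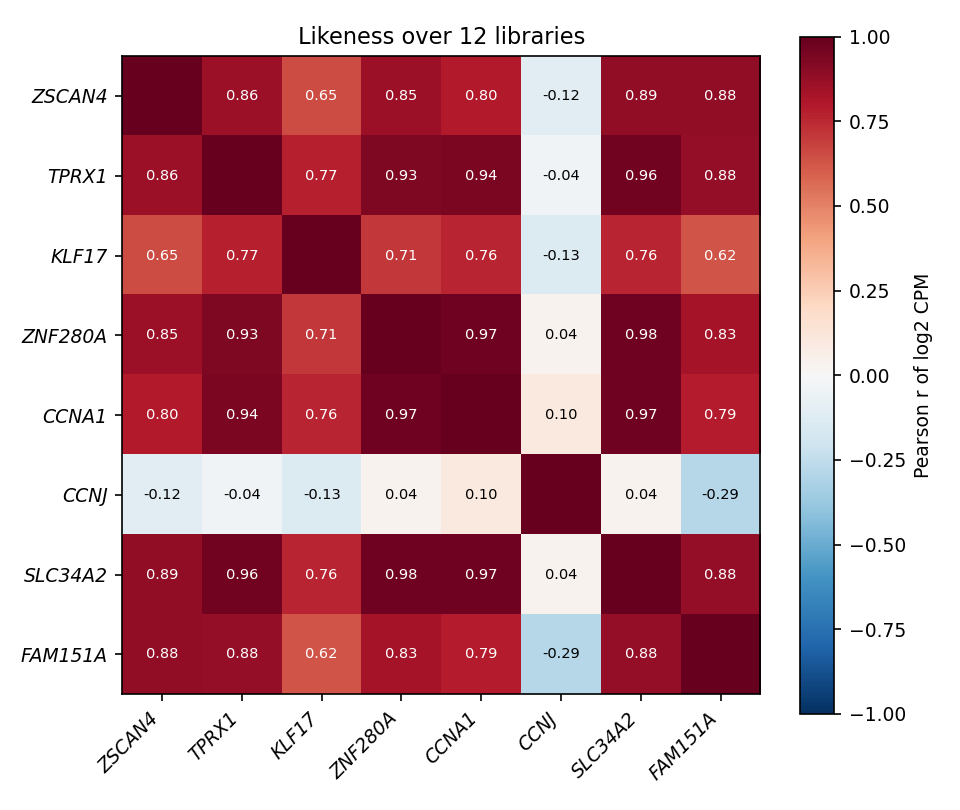
Pearson's r of log2 CPM over 12 libraries for the 28 pairs of the 8 genes. CCNA1, ZNF280A, SLC34A2 and TPRX1 form a block of values from 0.93 to 0.98, and the row of CCNJ runs from -0.29 to 0.10.

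Among all other tested genes, those with the highest r were taken, 3 for each gene. For SLC34A2 these were PHLDA2 (0.987), SYT11 (0.982) and ZBTB2 (0.977), and for ZNF280A they were ZBTB2 (0.978), PPAP2C (0.975) and ZNF263 (0.975). CCNA1 was followed most closely by ZNF263 (0.988) and by the noncoding genes RP11-265D19.6 (0.987) and RP11-540A21.2 (0.985). TPRX1 was closest to SYT11 (0.986), HSPA1A (0.981), a heat shock protein gene, and GRM2 (0.971). ZSCAN4 was nearest to ALOX12 (0.962), ITPRIP (0.961) and GLUL (0.960), and FAM151A to ZNF259 (0.971), GADD45A (0.965), a stress response gene, and KRT6A (0.963). KLF17 had SURF4 (0.903), MEX3B (0.901) and FUT2 (0.868), none of which passed in ASO-L1 against ASO-Ctr (edgeR adjusted p = 0.788, 0.401 and 0.326). CCNJ had SCAF8 (0.878), PRICKLE1 (0.844) and PKHD1 (0.837). Of the genome activation list described next, with 38 genes, only 3 were tested and could appear among these partners. None of the 3 did, and this says nothing on the untested genes of that list.

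Beside the 8 genes stood a list of 38 other genes of genome activation, of which 37 were in the table and 3 had enough counts for the test. SNAI1, a repressor of epithelial genes that is also active in many other settings, rose to 10.7 ± 2.61 CPM in ASO-L1, against 3.43 ± 0.322 CPM in ASO-Ctr (log2 change 1.64 ± 0.18, edgeR adjusted p = 3.42e-05). KHDC1 had a log2 change of 0.08 (edgeR adjusted p = 0.516) and ZNF296 one of -0.07 (edgeR adjusted p = 0.879). The 34 untested genes, 11 of them without a count in any library, summed to 1.38, 1.44, 5.53 and 5.88 CPM in ASO-L1 libraries 1 to 4, against 0.840, 1.13, 1.69 and 1.19 CPM in SO-L1 and 0.788, 0.683, 1.27 and 1.07 CPM in ASO-Ctr. ASO-L1 3 and 4 stood apart, as they did for 7 of the 8 genes. The highest of these counts in ASO-L1 were those of KDM4E, a histone demethylase gene, with 101 counts in ASO-L1, 8 in SO-L1 and 5 in ASO-Ctr, and of RFPL2, with 76, 11 and 9 in the same order. KDM4E and RFPL2 were picked for these counts. Other genes of the list were not highest in ASO-L1. In ASO-L1, SO-L1 and ASO-Ctr, TPRXL had 8, 13 and 11 counts, DPRX 5, 6 and 11, and ARGFX 7, 12 and 7. LEUTX, a PRD-like homeobox gene, had 3, 0 and 0 counts and DUXA had 2, 1 and 1, in ASO-L1, SO-L1 and ASO-Ctr, and DUX4 had 0 in all, where 0 counts allow up to 0.148 CPM in the shallowest library. LEUTX, DUXA and DUX4 could thus not be told from their background at this depth.

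Known regulators of the programmes of the mouse 2-cell and human 8-cell stage were read beside the 8 genes. Of 21 tested, 1 was higher and 3 were lower in ASO-L1 against ASO-Ctr, beside 11.6% and 10.7% of all genes, with a median log2 change of -0.01 beside 0 for all genes. PCGF6, a Polycomb subunit, rose by 0.16 ± 0.04 (edgeR adjusted p = 0.0143). LIN28A, an RNA-binding protein of pluripotent cells, fell by 0.18 ± 0.05 (edgeR adjusted p = 0.0186). SETDB1, a histone H3 methyltransferase, fell by 0.15 ± 0.05 (edgeR adjusted p = 0.0356), and KDM1A, a histone demethylase, fell by 0.14 ± 0.04 (edgeR adjusted p = 0.0377). With the library number as a block, 3 were higher and 9 lower, beside 22.5% of all genes in each direction. The smallest of these p-values was that of EZH2, a Polycomb methyltransferase, whose log2 change was -0.32 ± 0.15 without the block (edgeR adjusted p = 0.156) and which passed as lower with it (edgeR adjusted p = 4.46e-10). Against SO-L1, edgeR called 0 of them in either direction, with 1 higher and 3 lower at an unadjusted p under 0.05, 1 higher and 0 lower in DESeq2, 0 and 0 in limma-voom, and 3 higher and 7 lower with the block, beside 21.6% and 21.7% of all genes.

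Other cyclin genes served as a comparison for CCNA1 and CCNJ. Of 22 tested, 4 rose and 1 fell in ASO-L1 relative to ASO-Ctr (edgeR adjusted p under 0.05), beside 11.6% and 10.7% of all genes, with a median log2 change of 0.07. The higher ones were CCNI (0.21 ± 0.05), CCNT1 (0.22 ± 0.05), CCNL1 (0.17 ± 0.04) and CCNT2 (0.16 ± 0.05), and CCNY was lower (-0.29 ± 0.04, edgeR adjusted p = 3.92e-04). CCNA2, the A-type cyclin of somatic cells, had 252 ± 8.25 CPM in ASO-L1 and 237 ± 2.48 CPM in ASO-Ctr (log2 change 0.09 ± 0.03, edgeR adjusted p = 0.0645). It passed as higher with the block (edgeR adjusted p = 0.00999), and against SO-L1 without it (log2 change 0.13 ± 0.03, edgeR adjusted p = 0.0125). With the block 8 of the 22 were higher and 5 lower against ASO-Ctr, beside 22.5% of all genes in each direction. Against SO-L1, without the block, 4 were higher and 2 lower, beside 10.7% and 9.64% of all genes. In the fit without the block, the log2 changes of all 22 in ASO-L1 against ASO-Ctr were smaller in size than the 1.31 of CCNA1.

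The genes next to the 8 on the chromosome were read as well, a choice made after their values were known, with 3 protein-coding genes on each side by RefSeq order. Of 48 such genes 35 were tested, and 5 were higher and 5 lower in ASO-L1 against ASO-Ctr, counts near the share of all genes (11.6% and 10.7%). ZNF280B, next to ZNF280A, rose to 17.3 ± 1.46 CPM in ASO-L1, against 12.4 ± 0.232 CPM in ASO-Ctr (log2 change 0.48 ± 0.07, edgeR adjusted p = 2.32e-04). Its sequence relation to ZNF280A was not compared, and how the authors' counting treats reads that fit both is not given in the sources used here. EHD2, near TPRX1, rose by 0.55 ± 0.09 (edgeR adjusted p = 0.00107), ZNF671, near ZSCAN4, by 0.40 ± 0.07 (edgeR adjusted p = 9.04e-04), and ZNF211, also near ZSCAN4, by 0.16 ± 0.05 (edgeR adjusted p = 0.0444). CRX, a homeobox gene next to TPRX1, was too low to be tested, with 0.609 ± 0.164 CPM in ASO-L1, 0.159 ± 0.0767 CPM in SO-L1 and 0.158 ± 0.0643 CPM in ASO-Ctr. TPRX2P, also beside TPRX1, had 0 counts in every library. Near CCNA1, SPG20 fell by 0.22 ± 0.04 (edgeR adjusted p = 0.00239), and near CCNJ, TCTN3 fell by 0.22 ± 0.05 (edgeR adjusted p = 0.00669).

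**Figure D5:**
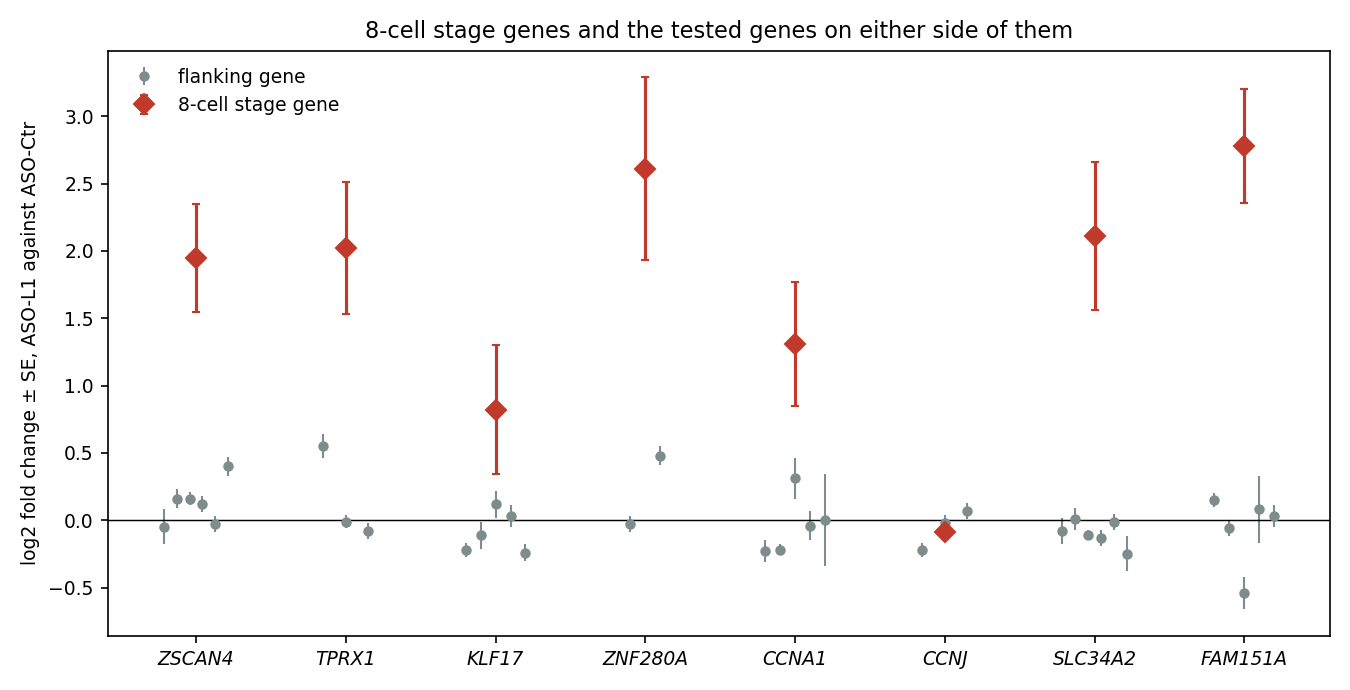
Log2 fold change ± SE in ASO-L1 against ASO-Ctr of each of the 8 genes (diamonds) and of the tested protein-coding genes on either side of it (circles). The tested flanking genes lie between -0.54 (ACOT11) and 0.55 (EHD2).

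Markers of other cell types were read in the same libraries, and the shares of all genes to set beside their counts are again 11.6% called higher and 10.7% called lower. Of 12 genes of trophectoderm and amnion 9 entered the test, and ASO-L1 was above ASO-Ctr for 6 and below it for 0, by edgeR and also by DESeq2 and limma-voom, with 0 lower at an unadjusted p under 0.05. KRT8 and KRT18, keratins of simple epithelia, rose by 0.63 (edgeR adjusted p = 3.28e-04) and 0.53 (edgeR adjusted p = 9.64e-05), and the transcription factor DLX3 rose by 2.63 (edgeR adjusted p = 4.45e-04). DLX3 had 0.690 to 1.31 CPM in ASO-L1, up to 0.338 CPM in SO-L1 and up to 0.199 CPM in ASO-Ctr. It met the filter on low counts in ASO-L1 libraries only, so it could enter the test only with a higher level there. Summed over the list, these markers had 1019 to 1088 CPM in ASO-L1, 648 to 811 CPM in SO-L1 and 634 to 772 CPM in ASO-Ctr. Most of this sum was KRT8, KRT18 and KRT19, with means of 741, 156 and 134 CPM in ASO-L1, so it mainly follows these keratins. Of the defining factors, GATA2 rose to 2.25 ± 0.514 CPM in ASO-L1, against 1.09 ± 0.119 CPM in ASO-Ctr (log2 change 1.03 ± 0.18, edgeR adjusted p = 0.00131). Too low for the test were GATA3 with 21, 20 and 21 counts, TFAP2A with 35, 28 and 27 and CDX2 with 9, 3 and 0, in ASO-L1, SO-L1 and ASO-Ctr. Of 12 naive markers 11 were tested and 6 were higher and 0 lower by edgeR (1 lower at an unadjusted p under 0.05, 0 in DESeq2 and limma-voom), with sums of 872 to 1187 CPM in ASO-L1, 718 to 823 CPM in SO-L1 and 713 to 793 CPM in ASO-Ctr. The largest parts of the naive sum in ASO-L1 were NLRP7 (416 CPM) and ALPPL2 (251 CPM), against 331 and 75.1 CPM in ASO-Ctr. With the library number as a block 7 naive markers were higher and 2 lower, beside 22.5% of all genes in each direction. The lower ones were DPPA5 (edgeR adjusted p = 5.5e-04) and TFAP2C (edgeR adjusted p = 0.00184). Of 4 core pluripotency genes 0 were higher, by any of the 3 tools or at an unadjusted p under 0.05, and 3 were lower, and of 9 tested primed markers 2 were higher and 3 lower. With the block 0 core genes were higher and 4 lower, 4 primed markers were higher and 4 lower, and 6 trophectoderm and amnion markers were higher and 0 lower. The part of these changes in those of the 8 genes was not tested.

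Other sources of CCNA1 and SLC34A2 were looked at by their markers. Of 8 germ cell markers 4 were tested, and edgeR called 0 in either direction, with 0 higher and 2 lower at an unadjusted p under 0.05 and 0 in DESeq2 and limma-voom. Their sum was 5.08 to 8.80 CPM in ASO-L1, 6.76 to 10.0 CPM in SO-L1 and 7.41 to 11.1 CPM in ASO-Ctr. In each group this sum was higher in numbers 3 and 4 than in numbers 1 and 2, as CCNA1 was, with 7.37 and 8.80 beside 5.08 and 5.21 CPM in ASO-L1, 10.0 and 9.58 beside 8.10 and 6.76 CPM in SO-L1, and 11.1 and 10.3 beside 7.98 and 7.41 CPM in ASO-Ctr. Its part in the level of CCNA1 was not tested. With the block 2 of the 4 were lower in ASO-L1 against ASO-Ctr. Of 5 markers of lung alveolar type 2 cells, which use SLC34A2, SFTPA1 had 0 counts in every library and SFTPC had 1, 0 and 2 counts in ASO-L1, SO-L1 and ASO-Ctr. Their sum was 14.7 to 16.8 CPM in ASO-L1, 15.8 to 17.0 CPM in SO-L1 and 15.2 to 17.8 CPM in ASO-Ctr. Most of this sum was ABCA3 alone, at 13.1 to 15.0, 14.3 to 15.8 and 14.3 to 15.8 CPM in the same order, so it mainly follows that gene. Of 6 fibroblast markers 2 were tested and COL1A1 was higher (log2 change 0.80, edgeR adjusted p = 0.0425). COL1A2 had a log2 change of -0.18 ± 0.11 (edgeR adjusted p = 0.272) and passed as lower with the block (edgeR adjusted p = 5.64e-05), and DCN had 0, 0 and 1 counts. The fibroblast sum was 235 to 295 CPM in ASO-L1, 195 to 277 CPM in SO-L1 and 196 to 281 CPM in ASO-Ctr, and its part in the results was not tested.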

How the data were processed

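RNA-seq was analysed for 12 libraries of H9 cells, 4 for each oligonucleotide set. Per the submitters' processing notes, reads were processed on hg19 with tools that include Trim Galore 0.4.0, TopHat2 2.0.13 and, from Subread 1.5.0, featureCounts. The main deposited table holds raw counts per gene symbol, whole numbers made by the authors, and 1 row without a gene name, with 10 counts in all, was left out. A deposited table of log2 normalised values is called batch corrected by the authors in its name, and the batches are not given. The authors' deposited comparison of ASO-L1 with SO-L1 holds log2 fold changes and p-values, each p-value also in adjusted form. The deposited t and B scores of that table were not used. The header of the count table lacks a name for its first column, so columns were read by position, and each of the 12 correlated best with the column of its own name in the log2 table over 21097 genes.

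The analysis of the counts used edgeR 4.0.16 under R 4.3.3. Genes were kept by filterByExpr by group (least count 10, least total 15), scaled by TMM and fitted with a robust quasi-likelihood model of group means over all 12 libraries. Calls are at an adjusted p under 0.05 over 17228 genes. An SE on the log2 scale was obtained from the log2 change and the F statistic. Intervals of a fold take the t distribution with 9 degrees of freedom. CPM means of 4 libraries are given with the SD, and log2 CPM has a prior count of 2. Each gene was named in every comparison, together with the 3 tested genes of highest r and the members of 3 further lists and 7 marker lists past the threshold or of smallest p. The 8 genes and these lists were chosen with earlier results of these data known. The fit was tested on simulated data that held no difference between library numbers, unlike the libraries here.

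Libraries of one number in different groups deviated together from their group means, at r of 0.450 to 0.561 over 12 pairs, and this is taken from the data, since no label states what they share. Libraries of different number within one set (1 with 2, 3 with 4) did so about as much, at r of 0.455 to 0.543. The values thus show the sets and do not show a closer pairing by number. The number was also fitted as a block, which takes up the difference between the sets. The alternatives were other scalings (relative log expression, totals alone), no filter on low counts, DESeq2 1.42.0, limma-voom (limma 3.58.1), only the groups compared, each pair of numbers alone, and leaving out each library. Libraries of one group differed by more than counting noise (lowest chi-square per degree of freedom 1.79). Promoter sequences and gene order came from RefSeq, and the strand of FAM151A and ACOT11 from GENCODE v29.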

Additional observations from a re-analysis of the deposited data

Results flagged for a closer look

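CCNA1 responded to ASO-L1 more strongly in libraries 3 and 4 than in libraries 1 and 2 when set against SO-L1, and this difference between the number sets passed its own test. The log2 change in numbers 3 and 4 minus that in numbers 1 and 2 was 0.38 ± 0.08 (edgeR adjusted p = 0.00346), where 1.76% of all genes passed. Without SO-L1 2 this difference did not pass (edgeR adjusted p = 0.0579). Fitted within numbers 3 and 4, CCNA1 changed by 1.32 ± 0.05 on the log2 scale, against 0.94 ± 0.07 within numbers 1 and 2. Against ASO-Ctr the difference was 0.28 ± 0.08 and did not pass (edgeR adjusted p = 0.0817). ASO-L1 was higher than SO-L1 in all 4 same-number pairs. No library stood far from the rest of its group in any of the 24 sets of 4 libraries looked at for the 8 genes.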

How the results depend on the processing

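For ASO-L1 against ASO-Ctr and ASO-L1 against SO-L1, the 5 calls among the 8 genes became 2 and 2 without a filter on low counts, and 3 and 2 in limma-voom. Leaving out each library gave 5 to 6 and 3 to 5 calls, and without ASO-L1 3 there were 3 against SO-L1. In numbers 3 and 4 alone, 1 of the 8 genes, CCNJ, was lower against ASO-Ctr. With the library number as a block, genes called higher and lower over the whole table were 3869 and 3878 against ASO-Ctr, 3727 and 3742 against SO-L1, and 73 and 170 in SO-L1 against ASO-Ctr. The block changed the call of CCNA1 in both ASO-L1 comparisons and of KLF17 against ASO-Ctr, and of no other of the 8 genes. Over the whole table, numbers 1 and 2 alone gave 3024 and 3021, 2963 and 2900, and 43 and 81 calls in the same order of comparisons, and numbers 3 and 4 alone gave 3131 and 2972, 3070 and 2791, and 64 and 137. In SO-L1 against ASO-Ctr, no filter gave 1 higher gene, totals alone gave 8 lower genes, and DESeq2 gave 7 higher and 45 lower genes.

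The sign of a change that passed no test turned in a few cases. In SO-L1 against ASO-Ctr, leaving out each library moved the log2 change of TPRX1 between -0.06 and 0.50, KLF17 between -0.21 and 0.26, ZNF280A between -0.34 and 0.31, CCNA1 between -0.11 and 0.33, and SLC34A2 between -0.31 and 0.20. KLF17 had -0.04 there in numbers 3 and 4 alone. For the difference between number sets, leaving out each library gave 74 to 253 genes against ASO-Ctr and 100 to 549 against SO-L1, with 0 to 1 of the 8 genes in each. The difference of ZSCAN4 against SO-L1 ran from -0.10 to 1. In 8 combinations of gene and alternative, 6 with KLF17 and 2 with ZSCAN4, no value was obtained. The cause of these shifts was not tested, apart from the fewer libraries or the other genes that an alternative itself brings. Depth limits ZSCAN4, KLF17 and FAM151A most, with 30 to 38 counts in the ASO-Ctr group.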
